A study of Caenorhabditis elegans with 6 samples.

Results

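Extracellular metalloproteases of *C. elegans* were followed in RNA-Seq counts from worms fed control bacteria or bacteria labelled as carrying a *Y37A1B.5* RNAi plasmid. The members are all genes whose symbol starts with nas-, adt- or zmp-, together with *dpy-31*, *hch-1*, *toh-1*, *gon-1* and *mig-17*, whatever their level. This gave 51 of the 46739 genes in the count table: 40 astacin genes, 5 ADAMTS genes and 6 matrix metalloprotease (MMP) genes. Wild-type N2 worms received 5 days of RNAi feeding at 20 °C, starting in young adulthood, and were moved to fresh plates by washing to keep them apart from their progeny. The 3 control libraries came from worms on *E. coli* with the empty vector L4440, and the 3 others from worms on *E. coli* with the *Y37A1B.5* construct. The replicates are independent experiments, numbered 1 to 3 in both groups. Each library was made from RNA of whole worms, eggs inside the mothers included, so that fewer cells of a type and less RNA per cell cannot be told apart.

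Astacins, ADAMTS proteases and MMPs are zinc-dependent enzymes that are mostly secreted and cut proteins outside the cell. Astacins are made with a prodomain that must be removed, and *C. elegans* uses them in hatching, in the maturation of cuticle collagen and in shedding the old cuticle at each molt. ADAMTS proteases carry thrombospondin repeats that bind extracellular matrix, and in the worm they remodel the basement membranes along which the gonad grows. MMPs degrade matrix proteins, and TIMP-like proteins act as their inhibitors.

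The 6 libraries held 34403223 to 46733527 counts. The count of *Y37A1B.5* itself (WBGene00012538) went against the label. It was 1126, 1295 and 792 in the controls and 4833, 3519 and 4189 in the other group, which is 1.85 higher on the log2 scale (SE 0.22, adjusted p = 0.000834 by edgeR's quasi-likelihood test). A count does not separate worm mRNA from RNA of the construct, and from this count alone the construct and an exchange of labels between the groups cannot be told apart. The libraries are therefore called by what they are labelled. Every direction given is relative to those labels and would turn if they were exchanged. The labelled replicate 3 stood apart within its group. Its median absolute log2 difference over genes was 0.202 and 0.184 from replicates 1 and 2, which differed from each other by 0.101.

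Levels are given in CPM, the counts relative to library size, scaled by TMM factors, and levels of different genes are compared per kilobase of exon. Of the 51 members, 39 had enough counts to be tested: 29 astacin, 5 ADAMTS and 5 MMP genes. Most of them had low counts. The median control level of the tested members was 0.762 CPM per kb, against 8.22 CPM per kb for all 15003 genes tested. The astacin *hch-1* had the highest control level of all members, 42.8 ± 5.10 CPM per kb (SD, n = 3). It was followed by the astacin *nas-20* with 31.9 ± 1.90 and by the MMP gene *zmp-4* with 12.1 CPM per kb. In the labelled libraries *hch-1* stood at 22.2 ± 1.72 and *nas-20* at 37.2 ± 2.03 CPM per kb, so that *nas-20* then ranked above it. These 3 genes gave 51.2 to 53.7% of all member counts in the control libraries and 46.7 to 47.1% in the labelled libraries, and *hch-1* alone 28.6 to 33.9% and 17.3 to 19.9%. The plot of levels per kilobase shows how few members carried the family's counts.

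**Figure D1:**
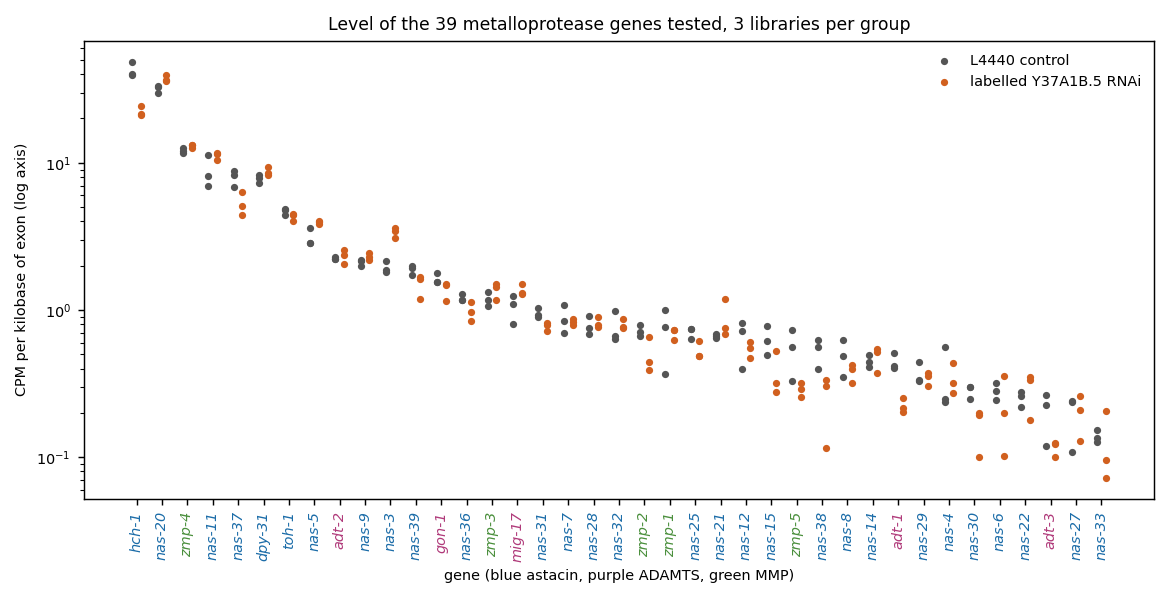
Level of each tested member in CPM per kilobase of exon (log axis), with 1 point for each of the 3 L4440 control libraries and the 3 libraries labelled *Y37A1B.5* RNAi, ordered by control level. *hch-1* and *nas-20* lead with means of 42.8 and 31.9 CPM per kb in the control, and the median tested member has 0.762.

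A gene was called differentially expressed (DEG) at an adjusted p under 0.05 over all genes tested. Of the 39 members, 3 were called lower in the labelled libraries (*hch-1*, *adt-1* and *nas-37*), which is 7.69% beside 8.85% of all genes tested. 1 member was called higher (*nas-3*), or 2.56% beside 4.81%. At an unadjusted p under 0.05, 10 members were lower, which is 25.6% beside 18.8% of all genes, and 4 were higher, which is 10.3% beside 14.3%. In 12 members every labelled library lay below every control library, or 30.8% beside 22.1%, and in 5 every labelled library lay above, or 12.8% beside 18.4%. The share of members called in either direction thus lay near the background. The background itself depended on the scaling and on the test. edgeR called 10.4% lower and 3.25% higher under upper-quartile factors, and 8.52 and 5.95% under RLE factors, another kind of size factor. DESeq2 called 10.5 and 9.75% of the 12342 genes to which it gave an adjusted p. With edgeR the shares were 7.84 and 11.6% once a trend on exon length was removed. By family the calls of edgeR were 2 lower and 1 higher among the astacins, 1 lower and 0 higher among the ADAMTS genes, and 0 among the MMP genes. Before adjustment, at p under 0.05, 2 ADAMTS and 2 MMP genes were lower and 0 were higher, and DESeq2 called the same numbers as edgeR in both families.

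The median log2 difference of the tested members was −0.11, with 23 below 0 and 16 above, beside −0.028 for all genes tested. It was −0.11 for astacins, −0.24 for ADAMTS genes and −0.048 for MMP genes. Measured for each labelled library against the control mean, after adding 0.1 CPM, the median was −0.13, −0.18 and −0.015. Replicate 3 was not closer to the control in general: its ADAMTS median was −0.50, against −0.13 and −0.12 in replicates 1 and 2, and over all genes it differed most from every control library (0.258 to 0.302 as median absolute log2 difference). With the experiments paired as a block, 4 members were called lower and 2 higher, the additional ones being *nas-15* and *nas-20*, in a fit that called 11.8% of all genes lower and 7.61% higher. Without the labelled replicate 3, 6 members were called lower, where 10.6% of all genes were. Without the control replicate 3, 3 members were called higher, where 4.36% of all genes were.

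**Figure D2:**
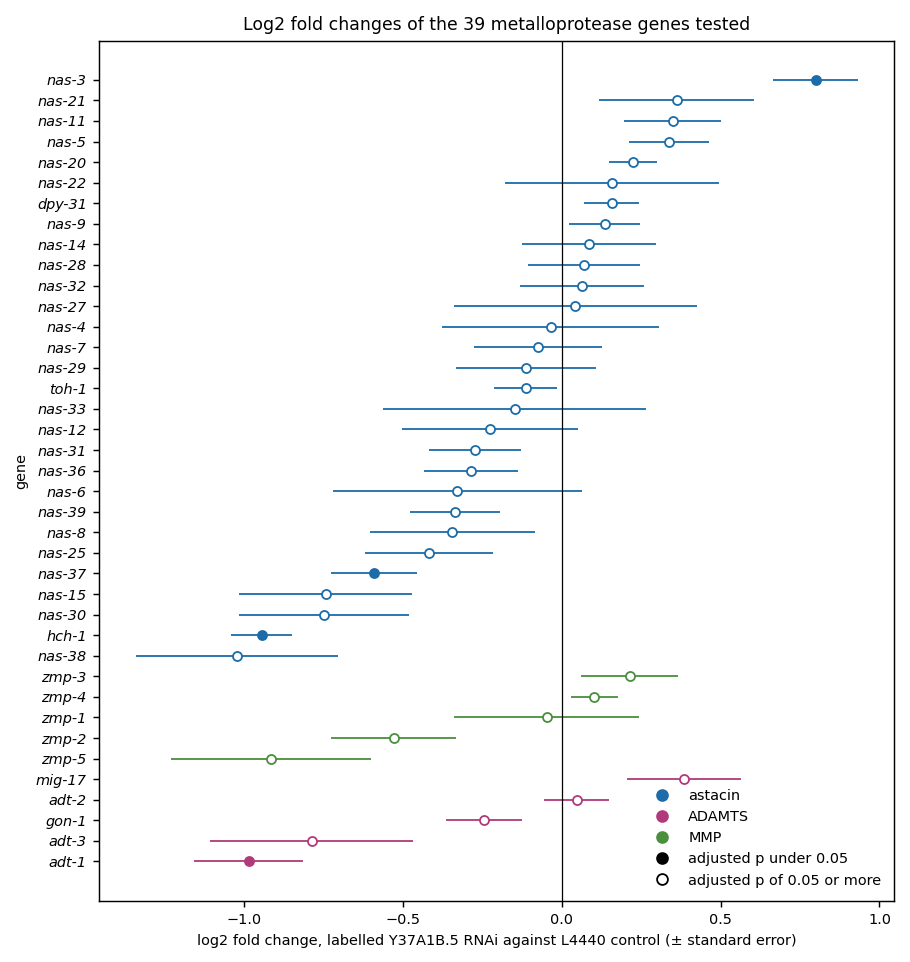
Log2 difference (labelled *Y37A1B.5* RNAi minus L4440 control) of the 39 tested members with its standard error, by family, with called members marked. Called members run from −0.99 for *adt-1* to 0.80 for *nas-3*, and the lowest estimate, −1.02 for *nas-38*, was not called.

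The hatching enzyme *hch-1* had the smallest adjusted p of all members. This astacin digests the eggshell when the larva hatches and is also needed for the migration of a neuroblast. The gene lies on the minus strand of chromosome X from 14696411 to 14699977 (WBcel235). Its counts were 2660, 3417 and 2796 in the control libraries and 1382, 2087 and 1673 in the labelled libraries. In CPM these were 77.6, 94.4 and 77.0 against 40.9, 46.9 and 41.5. Every labelled library lay well below every control library. *hch-1* fell from 83.0 ± 9.89 to 43.1 ± 3.33 CPM (SD, n = 3 each), a log2 difference of −0.94 (SE 0.095, adjusted p = 0.000579). Within experiments 1 to 3 the difference was −0.925, −1.009 and −0.891 on the log2 scale, and the call was kept when any one library was left out.

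Markers of embryos were counted beside *hch-1*. Of 17 listed embryonic genes 16 were found and 12 tested. 3 of them were called lower (*die-1*, *nhr-25* and *tbx-38*) and 1 higher (*pal-1*, not called with the block), with a median log2 difference of −0.20. That test called 8.85% of all genes lower and 4.81% higher. *nhr-25* also belongs to the list of molting regulators described below and counts among its lower calls. Their summed level ranged from 320 to 340 CPM in the control libraries and from 288 to 321 CPM in the labelled libraries, so that the groups overlapped slightly, and 0 of the markers found were at 0 in all libraries. Their part in the result for *hch-1* was not tested.

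**Figure D3:**
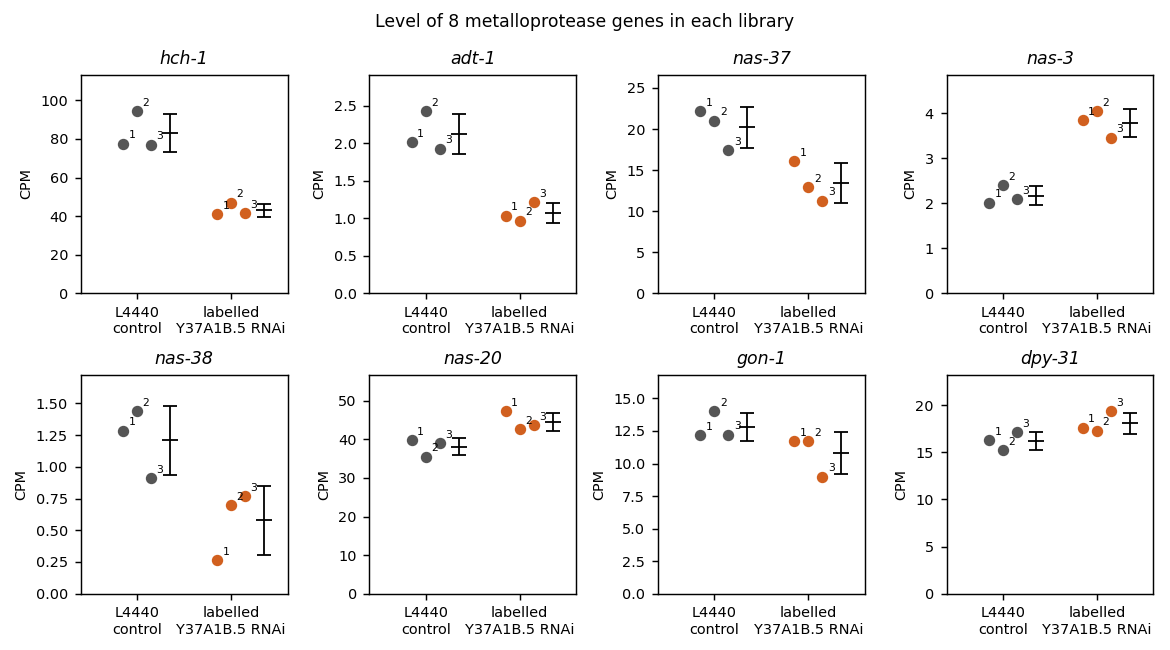
CPM (linear axis from 0) in each of the 6 libraries for 8 members, with replicate numbers at the points and the group mean ± SD beside them. All 3 labelled libraries lie below all 3 control libraries for *hch-1* (40.9 to 46.9 against 77.0 to 94.4 CPM) and above them for *nas-3* (3.45 to 4.05 against 2.01 to 2.40 CPM).

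Of the astacins that act at the molt, *nas-37* was called lower. *nas-37* and *nas-36* encode proteases needed to shed the old cuticle at ecdysis. *nas-37* (X, minus strand, 9944844 to 9949063) gave 22.2, 21 and 17.4 CPM in the control libraries and 16.1, 13 and 11.3 CPM in the labelled libraries. All labelled values were below all control values, but the nearest ones, 17.4 and 16.1 CPM, were close together. *nas-37* fell by 0.59 on the log2 scale (SE 0.14, adjusted p = 0.0208). The call was lost without the control replicate 1 (adjusted p = 0.0830), the control replicate 2 (0.0780) or the labelled replicate 2 (0.0554). *nas-36* had 2.89, 2.65 and 2.65 CPM in the control and 1.89, 2.20 and 2.58 CPM in the labelled libraries. The groups did not overlap, yet labelled replicate 3 nearly reached the control, and the log2 difference of −0.29 did not pass the test (adjusted p = 0.201). *nas-38* is known for its effect on sleep during the lethargus before a molt. It had 1.28, 1.44 and 0.909 CPM in the control and 0.266, 0.697 and 0.770 CPM in the labelled libraries. Labelled replicate 1 was by far the lowest of them. The estimate was the lowest of all tested members, −1.02 (adjusted p = 0.0581), and it passed the test without the labelled replicate 3 (−1.25, adjusted p = 0.038).

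Regulators of the molt and proteins of the apical matrix that covers the epidermis were described as a list. Like the other lists, it was chosen with earlier results of these data known. All 16 listed genes were tested and lay below 0, with a median of −0.66. Of these 12 were called lower and 0 higher, where 8.85 and 4.81% of all genes tested were. Before adjustment edgeR gave 12 lower at p under 0.05 and 0 higher, where 18.8 and 14.3% of all genes were. DESeq2 called 12 and 0, where 10.5 and 9.75% of all genes were called. With the length trend removed 11 were called lower and 0 higher, with a median of −0.51. That fit called 7.84% of all genes lower and 11.6% higher. These shares of all genes also apply to the counts of the other lists. The apical matrix gene *noah-2* had 76.8, 96.7 and 84.3 CPM in the control and 39.5, 47.4 and 42.9 CPM in the labelled libraries (log2 −0.99, adjusted p = 0.000560). For *noah-1*, a related matrix gene, the log2 difference was −1.11 (adjusted p = 0.000579). A list of 10 genes that mark molting larvae shares *mlt-10*, *mlt-11*, *noah-1*, *noah-2*, *fbn-1* and *nhr-23* with the list above. It also shares *dpy-5*, *dpy-13* and *sqt-2* with the cuticle collagens described below. The 10 genes summed to 478 to 592 CPM in the control and 278 to 312 CPM in the labelled libraries. 6 of these 10 were called lower, and all of them but *col-10* are counted among the lower calls above. 0 of the 10 were at 0 in all libraries, and their part in the result for *nas-37* was not tested. Of 9 markers of hypodermis and seam, the tissue that makes the cuticle, 8 were below 0, with a median of −0.46, and 1 was called lower (*elt-1*) and 1 higher (*col-19*). They summed to 153 to 168 CPM in the control and 142 to 153 CPM in the labelled libraries, ranges that touched, with 0 markers at 0 in all libraries. Of these markers *dpy-7* and *rol-6* also belong to the cuticle collagens described below, so these lists are not separate. The part of the markers in the values of the molting genes and of the cuticle collagens was not tested.

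*nas-3* was the member called higher in the main comparison (edgeR on all 6 libraries with group as the only term). It lies on the plus strand of chromosome V from 9478163 to 9479601. Its counts were 69, 87 and 76 in the control and 130, 180 and 139 in the labelled libraries, or 2.01, 2.40 and 2.09 against 3.84, 4.05 and 3.45 CPM. The lowest labelled library stood clearly above the highest control library. *nas-3* rose 1.74-fold (log2 0.80, SE 0.13, adjusted p = 0.00486), and the call was kept without any one library. The abundant *nas-20* had 39.8, 35.5 and 39 CPM in the control and 47.3, 42.7 and 43.6 CPM in the labelled libraries. All labelled values lay above all control values by a small margin, and the log2 difference of 0.22 missed the threshold (adjusted p = 0.0707). It passed in the fit with the experiments as a block (adjusted p = 0.0412) and in DESeq2 (0.0444), and also without the labelled replicate 3 (0.0353). *nas-15*, named after its values were seen, had 1.25, 0.995 and 1.57 CPM in the control and 0.650, 0.562 and 1.07 CPM in the labelled libraries. The groups overlapped, since labelled replicate 3 exceeded control replicate 2. Its log2 difference was −0.74 (adjusted p = 0.0905, or 0.0335 with the block).

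Astacins that process collagen or resemble the vertebrate procollagen C-proteinase BMP-1 did not pass the test. *dpy-31* encodes the procollagen C-proteinase that matures the cuticle collagen SQT-3. It had 16.3, 15.2 and 17.1 CPM in the control and 17.6, 17.3 and 19.3 CPM in the labelled libraries. The labelled values lay slightly above, with a log2 difference of 0.16 (SE 0.086, adjusted p = 0.226). Its substrate gene *sqt-3* did change. With 86.3, 109 and 83.3 CPM in the control and 50.1, 60.2 and 58.9 CPM in the labelled libraries, *sqt-3* fell by 0.72 on the log2 scale (adjusted p = 0.00312). *nas-39*, a tolloid-like astacin, had 6.74, 6.96 and 5.98 CPM in the control and 5.65, 5.80 and 4.15 CPM in the labelled libraries. The groups did not overlap, but the difference of −0.34 was not called (adjusted p = 0.127). Reads in 276 bp of its exons that *F38E9.1* shares on the same strand were not counted for either gene. *toh-1*, also tolloid-like, overlapped between groups with 7.0, 7.74 and 7.58 against 7.12, 6.45 and 7.08 CPM (log2 −0.11, adjusted p = 0.449).

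Among 20 cuticle collagens with body shape phenotypes, 19 were below 0, 4 were called lower and 0 higher, and the median was −0.46. The smallest adjusted p values belonged to *dpy-14* (log2 −1.0, adjusted p = 0.000560) and *dpy-17* (−0.87, adjusted p = 0.000590). Of these collagens 7 were lower and 0 higher at an unadjusted p under 0.05, and DESeq2 called 5 and 0. With the experiments as a block 6 were called lower, where 11.8% of all genes were. Without the labelled replicate 3, 13 were called lower, where 10.6% of all genes were. Of 13 tested genes for folding, processing and cross-linking of procollagen, 3 were called lower and 0 higher, with a median of −0.11. These were the prolyl 4-hydroxylase subunit *dpy-18* (log2 −0.34, adjusted p = 0.0184), the proprotein convertase *kpc-1* (−0.44, 0.0316) and the disulfide isomerase *pdi-2* (−0.33, 0.0359). In the same test 5 had an unadjusted p under 0.05 and were lower, 0 were higher, and DESeq2 called 3 and 0. Once a trend on exon length was removed, 2 were called lower and 1 higher, and the median was −0.023. That fit called 7.84% of all genes lower and 11.6% higher. The 3 lower calls of the main comparison fell to 0 without the control replicate 1, the control replicate 2 or the labelled replicate 1. Those fits called 4.22, 3.27 and 5.28% of all genes lower, against 8.85% in the main comparison. Without the control replicate 3, 1 was called lower, where 7.13% of all genes were.

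*nas-6* and *nas-7* are astacins of the pharynx, where they are needed for the grinder that crushes bacteria. *nas-6* had 0.408, 0.359 and 0.468 CPM in the control and 0.148, 0.292 and 0.521 CPM in the labelled libraries. The labelled libraries spanned more than the control range, and the log2 difference of −0.33 had an SE of 0.39 (adjusted p = 0.589). *nas-7* also overlapped between groups, with 1.14, 1.46 and 0.937 against 1.06, 1.12 and 1.17 CPM (log2 −0.07, adjusted p = 0.825). Of 10 pharynx markers tested, 3 were called lower (*pqn-74*, *abu-14* and *tnt-4*) and 0 higher. Before adjustment they were 6 and 0 at p under 0.05, and DESeq2 called 5 and 0. edgeR with the block called 5 lower, where 11.8% of all genes were. The list summed to 86.5 to 96.0 CPM in the control and 55.4 to 75.9 CPM in the labelled libraries, with 0 markers at 0 in all libraries. Its part in the values of *nas-6* and *nas-7* was not tested.

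Of the ADAMTS genes, *adt-1* was called lower. It is known for shaping the sensory rays of the male tail. The gene lies on the plus strand of chromosome X from 12678832 to 12689279. Its counts were 69, 88 and 70 in the control and 35, 43 and 49 in the labelled libraries, so that its level was low in both groups. In CPM the control libraries had 2.01, 2.43 and 1.93 and the labelled libraries 1.03, 0.967 and 1.22, without overlap. *adt-1* fell from 2.12 ± 0.270 to 1.07 ± 0.129 CPM (SD, n = 3 each; log2 −0.99, SE 0.17, adjusted p = 0.00573) and was called without any one library. *adt-3* had 0.729, 0.857 and 0.386 CPM in the control and 0.325, 0.405 and 0.397 CPM in the labelled libraries. Control replicate 3 fell among the labelled values, and the log2 difference of −0.79 was not called (adjusted p = 0.119). It passed the test without that control library (−1.06, adjusted p = 0.0375).

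The ADAMTS proteases that steer the distal tip cells of the growing gonad did not pass the test. *gon-1*, which is required for the gonad to elongate, had 12.2, 14 and 12.2 CPM in the control and 11.7, 11.7 and 8.99 CPM in the labelled libraries. Labelled replicate 3 was the lowest, and the other labelled values lay just below the control (log2 −0.24, adjusted p = 0.183). *mig-17*, secreted by body wall muscle, moved the other way with 1.72, 1.24 and 1.93 against 2.01, 2.05 and 2.33 CPM. These groups did not overlap either, and the log2 difference was 0.39 (adjusted p = 0.162). *adt-2*, which affects body size and the cuticle, overlapped between groups with 10.1, 10.4 and 10 against 11.6, 10.7 and 9.28 CPM (log2 0.05, adjusted p = 0.779).

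Basement membrane components and receptors, among which ADAMTS proteases act, were described as a further list. Of 23 genes, all tested, 10 were called lower and 0 higher, where 8.85 and 4.81% of all genes tested were. The median was −0.26. Before adjustment 15 were lower and 2 higher at p under 0.05, where 18.8 and 14.3% of all genes were. DESeq2 called 10 and 0, where 10.5 and 9.75% of all genes were called. Without the control replicate 1 or 2, 6 were called lower, where 4.22 and 3.27% of all genes were. Without the labelled replicate 3, 3 were called higher, where 7.89% of all genes were. The agrin gene *agr-1* had 25.2, 32.2 and 27 CPM in the control and 12.4, 13.6 and 14.3 CPM in the labelled libraries (log2 −1.07, adjusted p = 0.000560). The dystroglycan gene *dgn-1* fell by 0.80 and the discoidin domain receptor gene *ddr-2* by 0.90 on the log2 scale (adjusted p = 0.000890 and 0.00139). These counts changed when exon length was taken into account. Once the trend of log2 CPM on exon length was removed from each library, 6 of the 23 were called lower and 6 higher. The median was then −0.065, beside 0.047 for all genes. That fit called 7.84% of all genes lower and 11.6% higher, so the background for higher calls rose too.

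None of the 5 tested MMP genes was called. *zmp-1*, an MMP used by the anchor cell when it breaches the basement membrane, had 0.642, 1.33 and 1.74 CPM in the control and 1.27, 1.08 and 1.27 CPM in the labelled libraries. The control libraries enclosed the labelled ones (log2 −0.05, SE 0.29, adjusted p = 0.928). *zmp-2* had 2.25, 2.13 and 2.51 against 1.24, 1.42 and 2.09 CPM. Labelled replicate 3 lay just below the lowest control value, and the log2 difference of −0.53 was not called (adjusted p = 0.0935). Without that library it passed (−0.77, adjusted p = 0.0165). *zmp-4*, the most abundant MMP transcript per kilobase, had 20.5, 19.7 and 21.5 against 22.6, 21.4 and 22.5 CPM, with overlap (log2 0.10, adjusted p = 0.360). The lowest MMP estimate was that of *zmp-5*, named after its values were seen, with 0.438, 0.746 and 0.964 against 0.384, 0.337 and 0.422 CPM. The groups did not overlap, and the log2 difference was −0.92 (adjusted p = 0.0759, and past the threshold without the control replicate 1).

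The inhibitors gave no call before exon length was taken into account. The TIMP-like gene *tim-1* had 274, 278 and 292 CPM in the control and 270, 265 and 281 CPM in the labelled libraries (log2 −0.05, adjusted p = 0.674). *cri-2*, also TIMP-like, had 6.15, 5.86 and 6.12 against 5.65, 7.15 and 8.02 CPM (log2 0.20, adjusted p = 0.303). The papilin gene *mig-6* had 53.2, 50.6 and 55.9 against 53.7, 51.7 and 36.9 CPM. Its labelled replicate 3 stood apart from the other libraries (log2 −0.17, adjusted p = 0.365). By edgeR 0 of the 3 inhibitors had an unadjusted p under 0.05, and DESeq2 called 0. With the length trend removed *mig-6* was called higher (log2 0.26, adjusted p = 0.0269), and the median of the 3 turned from −0.048 to 0.23.

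Genes of membrane metalloproteases and related proteins outside the members, mostly neprilysins, were counted for comparison. Of 29 genes found 25 were tested, 4 were called lower and 0 higher, and the median was −0.18. The neprilysin *nep-26* fell by 0.62, the ACE-like *acn-1* by 0.68 and the neprilysin *nep-1* by 0.32 on the log2 scale (adjusted p = 0.00513, 0.0217 and 0.0264). Before adjustment 7 were lower and 0 higher at p under 0.05, and DESeq2 called 3 and 0. The lower calls were 2 without the control replicate 1 or the labelled replicate 1, where 4.22 and 5.28% of all genes were called lower. Without the control replicate 2, 1 was called lower, where 3.27% of all genes were. Without the labelled replicate 3, 2 genes were called higher, where 7.89% of all genes were. With the length trend removed 2 were called lower and 2 higher, where 7.84 and 11.6% of all genes were, and the median was −0.034. Among 12 genes of the DBL-1 pathway, a BMP pathway that sets body size, 1 was called lower and 0 higher, with a median of 0.018. This was *crm-1*, which fell by 0.44 (adjusted p = 0.00621). Of the pathway 2 genes were lower and 1 higher at an unadjusted p under 0.05. DESeq2, the fit with the block and the fit without the labelled replicate 3 each called 2 lower and 1 higher. These fits called 10.5 to 11.8% of all genes lower and 7.61 to 9.75% higher. Without the control replicate 3, 1 was called higher, where 4.36% of all genes were. With the length trend removed 1 was called lower and 2 higher, where 7.84 and 11.6% of all genes were, and the median was 0.14. The plot of the related lists shows the members in the middle of the range of medians.

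**Figure D4:**
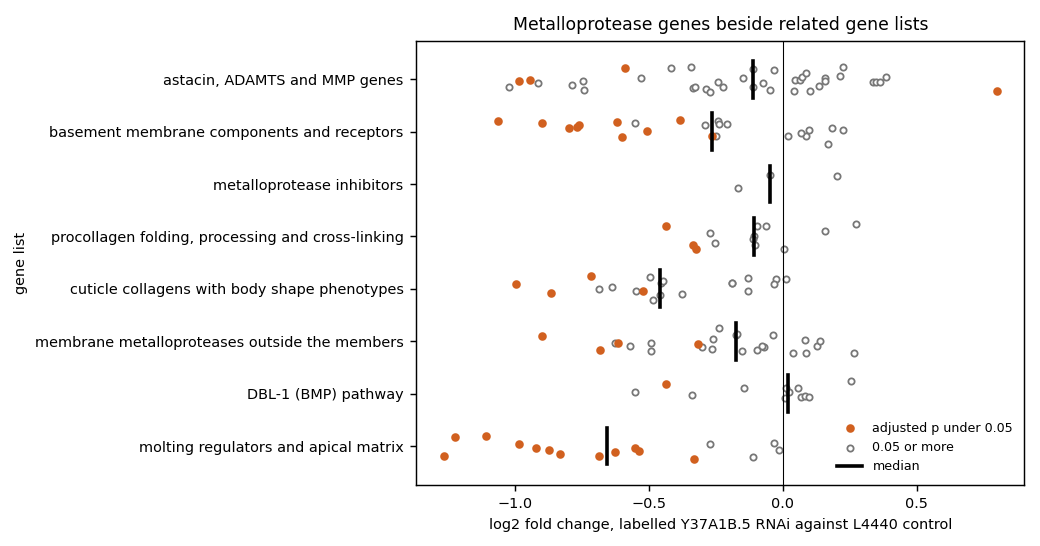
Log2 difference (labelled *Y37A1B.5* RNAi minus L4440 control) of each tested gene of the members and of 7 related lists, with the median of each list and called genes marked. Medians run from −0.66 for molting regulators and apical matrix to 0.018 for the DBL-1 pathway, with −0.11 for the members.

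Log2 differences of the members also went with exon length. Across the 39 tested members they correlated with the log2 of exon length with r = −0.43 (rho = −0.50), beside r = −0.27 (rho = −0.28) across 14919 genes. These are descriptions across genes that share their libraries. Of the 6 members with more than 3000 bp of exon 5 were below 0, with a median of −0.43. Of the 9 shortest tested members 4 were below 0, with a median of 0.16. With the length trend removed, r over the members was −0.25 (rho = −0.33), and the median of all members was −0.015 beside 0.047 for all genes. *adt-1*, one of the long genes, was then at −0.67 (adjusted p = 0.033). *gon-1* turned to 0.19, and *adt-2* passed the test as higher (0.34, adjusted p = 0.0232). Of these 3 ADAMTS genes *gon-1* changed sign, while *adt-1* stayed lower and *adt-2* stayed above 0.

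**Figure D5:**
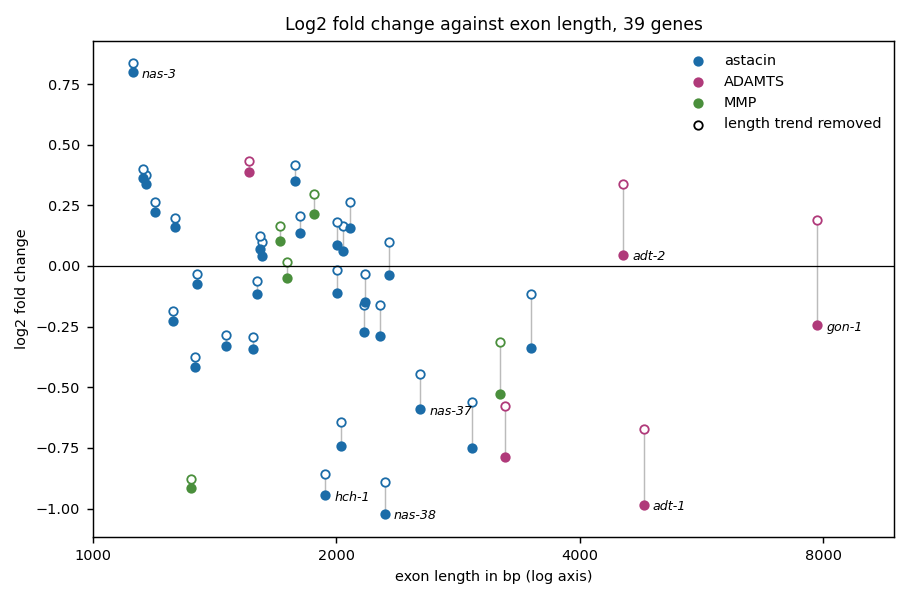
Log2 difference (labelled *Y37A1B.5* RNAi minus L4440 control) of the 39 tested members against exon length in bp (log axis), before and after the trend on length was removed from each library. The 6 members over 3000 bp have a median of −0.43 before and −0.21 after removal.

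The 12 members that were not tested had at most 14 counts in any library. 6 of them had at most 3 counts in every library, and 1 of these 6 had no count at all. The symbol *nas-2* names a pair of loci (WBGene00021221 and WBGene00003521) that each span 819 bp of exon and had 0 or 1 count. Reads that fit near-identical copies were not counted, so these values are uncertain. The others are *nas-1*, *nas-10*, *nas-13*, *nas-16*, *nas-17*, *nas-18*, *nas-19*, *nas-23*, *nas-24* and *zmp-6*. Low counts grouped along the genome in 1 place. *nas-16*, *nas-18*, *nas-17* and *nas-19* lie on chromosome V between 11392320 and 11402710, with 1 other coding gene between *nas-16* and *nas-18*, and each had at most 3 counts. Other neighbours differed in level. *nas-20* and *nas-21* start 254 bp apart on opposite strands of chromosome V, with control levels of 31.9 and 0.667 CPM per kb. *nas-21* had 0.788, 0.746 and 0.772 CPM in the control and 1.36, 0.787 and 0.869 CPM in the labelled libraries (log2 0.36, adjusted p = 0.321). Chromosome V holds 17 of the 51 members and chromosome X 13.

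The remaining tested astacins were not called. The most abundant of them per kilobase was *nas-11*, with 8.80 CPM per kb in the control, or 14.4, 12.4 and 20.2 CPM in the control and 18.6, 20.8 and 20.3 CPM in the labelled libraries. Control replicate 3 lay among the labelled values (log2 0.35, adjusted p = 0.141). *nas-5* had 3.33, 3.32 and 4.19 against 4.43, 4.59 and 4.67 CPM without overlap (log2 0.34, adjusted p = 0.0972), and *nas-30* had 0.729, 0.884 and 0.882 against 0.296, 0.585 and 0.571 CPM, also without overlap (log2 −0.75, adjusted p = 0.0846). *nas-11*, *nas-5*, *nas-30* and *nas-21* were named after their values were seen. *nas-11* and *nas-5* passed the test without the control replicate 3.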

How the data were processed

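RNA-Seq libraries were stranded, and the table the authors deposited holds raw, unnormalized counts for each gene. According to the methods of the study and the submitters' processing notes, reads were trimmed, mapped to WBcel235 with TopHat2 2.1.0 and counted with featureCounts 1.5.0 if they mapped uniquely to 1 gene on its strand. Near-identical or overlapping genes therefore lose reads. Genes were compared using edgeR 4.0.16 under R 4.3.3 (TMM factors, filterByExpr with minimum count 10 and minimum total 15, quasi-likelihood test, Benjamini-Hochberg adjustment over all 15003 genes tested, group as the only term). CPM were calculated from these counts with TMM-scaled library sizes. A floor of 3 counts, taken as an approximate upper limit for a count of 0, corresponds to less than 0.1 CPM in each library. This floor covers counting error only. With 3 libraries against 3, an exact permutation test gives no p under 0.1. The fit was tested on simulated data.

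Symbols, positions and exon lengths came from the Ensembl release 115 annotation, which holds all 51 members. The study counted reads with an older Ensembl release of the same assembly. No sequences were used. The members, related lists and marker lists were chosen with earlier results of these data known. Named genes are every called member, those with a known role, the 3 with the highest level per kilobase, at most 3 called genes per related list, the inhibitors and *sqt-3*. Marker symbols *bus-8*, *mir-228* and *elt-5* found no gene. Alternatives were DESeq2 1.42.0, other size factors and filters, removal of the length trend (loess, span 0.5), leaving out each library, and a block for the experiment. Equal numbers were taken as pairs because the study numbers its experiments alike in both groups. Deviations from group means correlated by 0.135, 0.0626 and 0.121 for equal numbers and by −0.146 to 0.0357 for different ones, so the second pair lies under 0.1.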

Additional observations from a re-analysis of the deposited data

How the results depend on the processing

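Of 261 alternative values for 19 named members, 236 kept direction and side of the threshold, 13 passed it newly, 3 no longer passed it and 9 changed sign. The 3 lower calls became 7 of 50 members without a filter beyond 1 count, where 7.82% of all genes were called lower. They became 2 to 6 when a library was left out, where 3.27 to 10.6% of all genes were called lower. The 1 higher call became 2 in DESeq2, 2 without that filter, 2 with the replicate block, 3 with the length trend removed, 6 with length trend and block together, and 1 to 3 when a library was left out. Over all genes 9.75% were called higher in DESeq2, 5.02% without that filter, 7.61% with the replicate block and 1.42 to 7.89% over left-out libraries. The share was 11.6% with the length trend removed and 15.3% with the block added, beside 4.81% without either, so that the background rose too. The members' median of −0.11 became −0.015 with the length trend removed and −0.017 with the block added, and ranged from −0.21 to −0.014 over left-out libraries. Signs changed for *gon-1* (0.19 with the length trend removed, and 0.19 with the block added), *zmp-1* (0.017 and 0.036 under the same settings, −0.35 to 0.28 over left-out libraries), *adt-2* (−0.010 without the labelled replicate 1, and up to 0.13 over left-out libraries) and *nas-7* (−0.22 to 0.11 over left-out libraries, highest without the control replicate 2). The cause was not tested. Adding the block to the main test changed the calls of *nas-15* and *nas-20*, and adding it to the length-corrected test those of *nas-15*, *dpy-31*, *nas-11* and *nas-5*. DESeq2 gave an adjusted p for 24 of the 39 members. Of 196 counts of the related lists, 39 moved by over 1.5 times. Members under 1 CPM rest on few counts.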
